A study of Homo sapiens with 4 samples.

Results

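The genes described here were 34 direct targets of the transcription factor p53, taken from a list of gene symbols out of the 62663 genes of the GENCODE 44 annotation, of which 20033 were protein-coding. All 34 were found in the annotation. The study mapped the histone variant H3.3 by chromatin immunoprecipitation and sequencing (ChIP-seq) in MRC5 human lung fibroblasts, which its methods call MRC5_VA, a line immortalized with SV40. An H3.3 library of untreated wild-type cells was compared with an H3.3 library of wild-type cells that received 10 J/m2 of UV-C light and recovered for 3 h. Each condition was 1 library, made from DNA of 3 pooled replicates, and the matching input libraries were not analysed here. No test between conditions was therefore possible, no value carries a replicate error, and the 34 genes are not replicates of a condition.

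p53 is a sequence-specific activator that is stabilized after DNA damage. It binds a pair of adjacent decamers in the promoter or first intron of its targets and turns on genes for cell cycle arrest, apoptosis, metabolic adaptation and its own destruction. In cells immortalized with SV40, the large T antigen of the virus binds p53 and blocks its access to these elements. H3.3 is the form of histone H3 that is placed into chromatin outside DNA replication, and it is abundant at active promoters, along transcribed genes and at enhancers.

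The data were lists of genomic intervals in which H3.3 was enriched. The list without UV held 88822 distinct intervals with a median width of 435 bp on the main chromosomes, and the list after UV held 77183 with a median width of 449 bp. The read depth behind the intervals is unknown, and the lists were called separately, so that a UV response and a difference in depth or immunoprecipitation between the libraries cannot be told apart. An interval within 1 kb of any annotated transcription start site (TSS) of a gene was called a TSS interval. Among 12 fibroblast marker genes, 7 had a TSS interval in both lists, including *VIM*, *FN1*, *COL1A1* and *COL1A2*, whereas *COL3A1*, *COL6A3*, *THY1*, *LUM* and *DCN* had none. Of 8 epithelial, 6 endothelial and 7 immune markers, 3, 1 and 2 had one without UV and 3, 1 and 1 after UV. These are counts of occupancy and not of expression.

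Matches to the element that p53 binds are shown first, because they mark where H3.3 coverage can be set beside the factor that defines these genes. A match was 2 adjacent p53 decamers with no spacer, with the C and G core of each decamer intact and at most 2 mismatches at the other 16 positions. The element reads the same on both strands, so that 1 scan covered both. In the gene bodies and 10 kb flanks of the 34 genes, 2004212 bp in all, 31 matches were found in 21 genes. Of these, 3 touched an H3.3 interval without UV and 6 did so after UV. The order depended on the stringency, since 27 and 24 touched one at up to 3 mismatches, and 0 and 1 at up to 1 mismatch. Capitals mark the 20 matched bases and lower case the 5 bases either side, on the strand of the gene in hg38. Upstream is counted from the canonical TSS, and *GDF15* and *CDKN1A* also have annotated starts farther upstream than that TSS. The matches below were inside a UV interval, except the last, which was inside an interval without UV.
*MDM2*, intron 1, chr12:68808923-68808942, + strand: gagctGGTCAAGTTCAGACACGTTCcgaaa
*GADD45A*, intron 3, chr1:67686775-67686794, + strand: gtacaGAACATGTCTAAGCATGCTGgggac
*FAS*, intron 1, chr10:88991309-88991328, + strand: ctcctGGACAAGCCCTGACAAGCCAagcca
*BAX*, intron 1, chr19:48955213-48955232, + strand: cccccGGGCAGGCCCGGGCTTGTCGcccgc
*PMAIP1*, upstream, chr18:59899549-59899568, + strand: tttctGGGCTTGTTTACCCAAGTCTctaat
*GDF15*, upstream, chr19:18385308-18385327, + strand: attgcCATCTTGCCCAGACTTGTCTcgaac

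The *MDM2* match lay 755 bp downstream of the TSS and was inside an interval in both lists. The place of other matches relative to the called intervals differed between the lists. Without UV, the *GADD45A* match was 9 bp and the *PMAIP1* match 19 bp outside the nearest interval. The *FAS* match was 116 bp and the *BAX* match 126 bp outside it. After UV each of them was inside an interval. The interval that held the *BAX* match was weak, with a −log10 q of 1.6 at percentile 2.4. The *GADD45A* match ends at 67686794, and the interval ended at 67686766 without UV and at 67686798 after UV. The *PMAIP1* match begins at 59899549, and the interval began at 59899587 without UV and at 59899547 after UV. Both of these matches thus lay at the edge of a called interval. Intervals covered 7.63% of the searched bp without UV and 7.15% after UV. The *GDF15* match, at -841 bp, went the other way, and the nearest UV interval was 5831 bp from it. A further match, in the first intron of *TNFRSF10B*, was inside an interval in both lists.

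Other matches in these genes had no H3.3 interval over them in either list. *CDKN1A* had 2 upstream matches. The nearer one, at -2256 bp and with 2 mismatches, was 1969 bp from the closest interval without UV and 2020 bp from the closest after UV. The other, at -11447 bp and with 1 mismatch, was 11160 and 11211 bp away. The only matches with 0 mismatches were those of *ZMAT3* and *PLK2*, at 1195 and 1437 bp from an interval without UV and at 1197 and 1435 bp after UV.
*CDKN1A*, upstream, chr6:36676449-36676468, + strand: gtcagGAACATGTCCCAACATGTTGagctc
*ZMAT3*, intron 1, chr3:179070188-179070207, - strand: tcataAAACAAGTCCAGACATGCCTaggca
*PLK2*, upstream, chr5:58462274-58462293, - strand: atgagAAACATGCCTGGACTTGCCCtgcac

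A match was held by 3 of the 57 TSS intervals of these genes without UV and by 6 of the 50 after UV. Over the TSS intervals of all protein-coding genes the shares were 0.348% and 0.413%. The genes were listed as direct p53 targets, so their possession of elements is part of how they were chosen, and nothing is read from that excess. A match is a description of letters and not evidence of binding.

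Most of the 34 genes carried H3.3 at a TSS in both libraries. A TSS interval was present for 26 of 34 genes without UV, beside 48.0% of protein-coding genes, and for 28 of 34 after UV, beside 54.0%. *CCNG1* and *TP53INP1* had one only after UV, 2 of the 8 genes that lacked one before, where 17.7% of such protein-coding genes gained one. None of the 26 genes lost all its TSS intervals, where 6.68% of protein-coding genes did. *BTG2*, *TNFRSF10A*, *AEN*, *TIGAR*, *FDXR* and *SPATA18* had none in either list, 6 of 34 beside 42.8%. The median GC content within 500 bp of the canonical TSS was 65.9% in the 26 genes with H3.3 in both lists and 63.7% in the 6 with none, against 65.2% and 55.6% in protein-coding genes of the same classes.

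The width of coverage moved in both directions. Width was taken as the bp covered by all TSS intervals of a gene, and a ratio after UV over without UV of at least 1.5 or at most 1/1.5 was called. Of the 26 genes in both lists, 7 were called wider, beside 29.4% of protein-coding genes, and 6 narrower, beside 10.2%. Their median ratio was 1.05, against 1.18 over 8974 protein-coding genes, and it was above 1 in 53.8% of them against 68.8%. The median width went from 1002 to 1012 bp in the p53 targets and from 914 to 1135 bp in protein-coding genes. The count of narrower genes fell to 2 when only the canonical TSS was counted, as given further on.

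**Figure D1:**
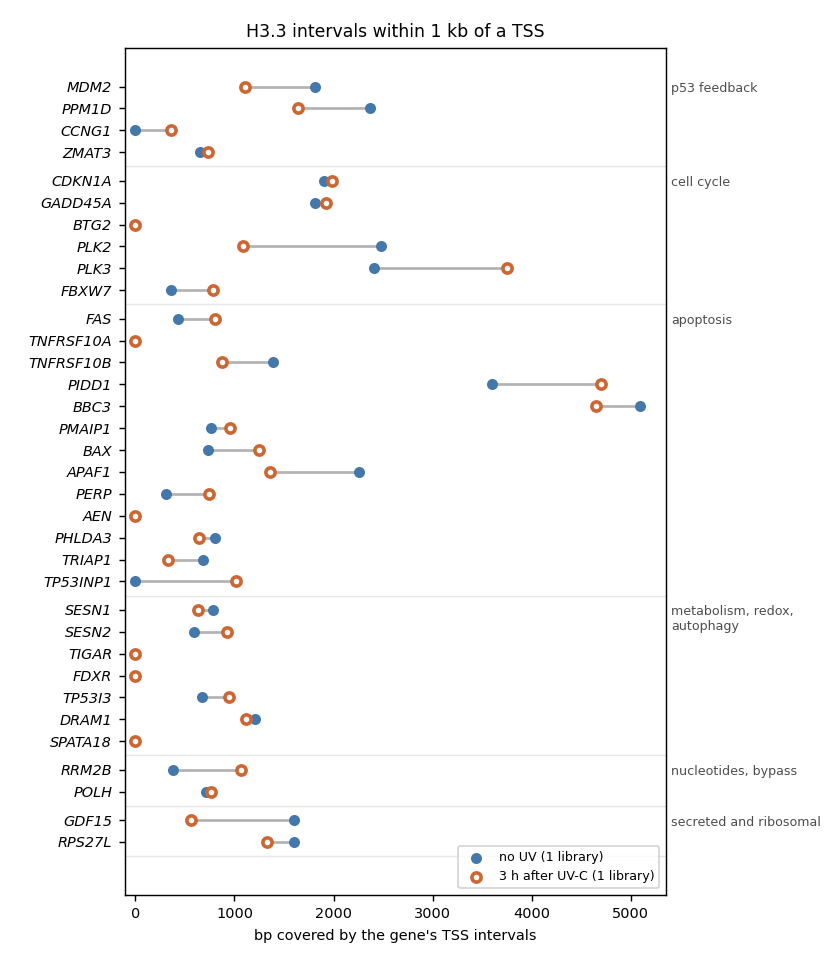
H3.3 coverage at the TSSs of the 34 p53 target genes, grouped by role. The horizontal axis gives the bp covered by all intervals within 1 kb of any TSS of the gene, filled points are the library without UV and open points the library after UV, 1 library each with no error. The widest coverage was that of *BBC3*, 5098 and 4649 bp, and of *PIDD1*, 3601 and 4702 bp, and 6 genes are at 0 in both lists.

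**Figure D2:**
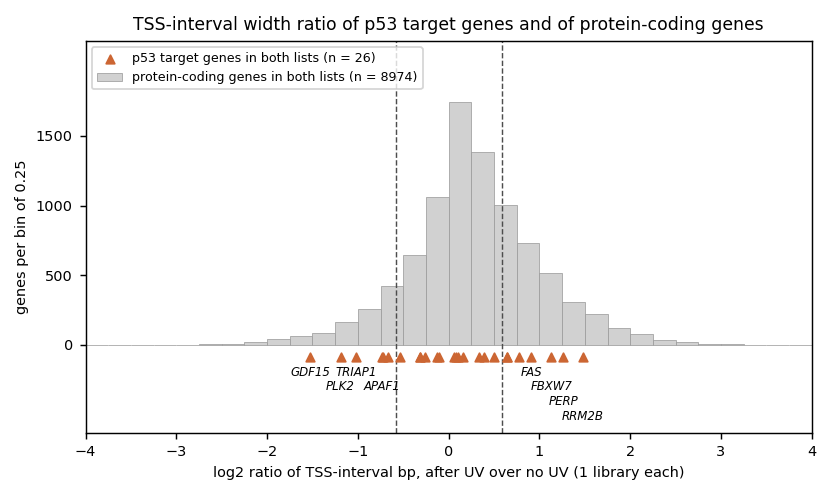
Ratio of TSS-interval bp after UV over without UV, on a log2 axis. Bars count the 8974 protein-coding genes in both lists in bins of 0.25, triangles mark the 26 p53 target genes and dashed lines mark a ratio of 1.5 either way. The triangles run from *GDF15*, with a ratio of 0.348, to *RRM2B*, with a ratio of 2.78.

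The feedback genes restrain p53 itself. *MDM2*, the ubiquitin ligase that degrades p53, had 1818 bp of TSS intervals without UV and 1103 bp after UV, a ratio of 0.607. The difference lay at an internal start. The interval over the canonical TSS measured 975 bp without UV and 1103 bp afterwards. Its strongest summit was at 579 and 567 bp downstream. A further interval of 843 bp, starting 16769 bp downstream near an internal TSS, was the other one. After UV an interval of 438 bp overlapped it, but began 17204 bp downstream and lay 1178 bp from the nearest TSS, so that it fell outside the 1 kb window. By significance rank within its own list, in which a higher percentile is a stronger peak, the start interval of *MDM2* stood at percentile 99.2 without UV and 98.5 after UV.

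*PPM1D*, a phosphatase that switches off p53 and its upstream kinases, had 2372 and 1638 bp, a ratio of 0.691. Its start was covered by 1 interval of 1044 bp without UV, and 2 intervals of 441 and 604 bp took its place after UV, leaving the TSS itself uncovered. The bp near the canonical TSS were thus nearly equal, 1044 and 1045. Intervals of 281 and 527 bp near internal starts, beginning 31157 and 32604 bp downstream, were found only without UV. *ZMAT3*, an RNA-binding protein, was nearly the same in both lists, with 652 and 731 bp at percentiles 98.5 and 98.6. *CCNG1*, the cyclin G1 gene, had no TSS interval without UV, the nearest being 10567 bp from any TSS. After UV an interval of 356 bp appeared 5471 bp downstream of its canonical TSS, 336 bp from an internal TSS, with a −log10 q of 8.66. Its canonical TSS was not covered in either list.

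Of the 6 cell cycle genes, 5 had a TSS interval in both lists and *BTG2* had none. *CDKN1A* encodes p21, the inhibitor of cyclin-dependent kinases through which p53 arrests cells. Its TSS intervals covered 1902 bp without UV and 1980 bp after UV, a ratio of 1.04. The interval over the start was 609 bp wide without UV and 579 bp after UV, at percentiles 41.5 and 27.8. The stronger interval lay downstream, from 820 to 2112 bp without UV and from 810 to 2210 bp after UV, with percentiles of 79.4 and 93.3. Width at *CDKN1A* thus barely differed, while the ranks of its start interval and downstream interval moved in opposite directions.

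*GADD45A*, a stress sensor of the G2 checkpoint, had 1816 bp without UV, in an upstream interval of 290 bp and one of 1526 bp that began 40 bp after the TSS. After UV it had 1 interval of 1927 bp that ran from -329 to 1597 bp. Its strongest peak was at percentile 99.3 without UV and 99.6 after UV. The ratio was 1.06, and the TSS base itself was covered only after UV.

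The polo-like kinases *PLK2* and *PLK3* act in stress checkpoints. *PLK2* had 2482 bp without UV and 1086 bp after UV, a ratio of 0.438, after the loss of intervals of 1499 and 289 bp near internal starts. Close to its canonical TSS the coverage was higher after UV, 1086 against 694 bp. *PLK3* had 2406 bp without UV and 3748 bp after UV, a ratio of 1.56, and its strongest interval, among the strongest of both lists, also lay within reach of the TSS of *DYNLT4*. *FBXW7*, which encodes the substrate-binding part of a ubiquitin ligase for cyclin E, had 358 and 784 bp, a ratio of 2.19. *BTG2*, an antiproliferative gene, had no interval closer than 22049 bp without UV and 21914 bp after UV.

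The death receptor genes differed among themselves. *FAS*, the receptor for Fas ligand, had a single interval of 430 bp without UV, from -34 to 395 bp, and of 807 bp after UV, from -82 to 724 bp. The ratio was 1.88, the added coverage lay mostly downstream, and the percentile was 95.5 and 96.9. This interval also touched the TSS window of *ACTA2*, so that coverage here cannot be given to 1 gene. *TNFRSF10B*, a receptor for the ligand TRAIL, had 1392 and 875 bp, a ratio of 0.629, with intervals at internal starts in the list without UV only. Its neighbour *TNFRSF10A*, another TRAIL receptor, had no interval closer than 20057 bp without UV and 18641 bp after UV. *PIDD1*, a scaffold for caspase-2 activation, had 3601 and 4702 bp, a ratio of 1.31. Within 1 kb of its canonical TSS it had 2464 and 1963 bp, a ratio of 0.797.

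The genes of the mitochondrial pathway differed in direction. *BBC3* encodes PUMA, a BH3-only activator of apoptosis, and had 7 TSS intervals of 5098 bp without UV and 6 of 4649 bp after UV, a ratio of 0.912. Its strongest interval lay 2655 to 3214 bp downstream without UV and 2157 to 3229 bp downstream after UV, at percentiles 99.5 and 99.6. The interval nearest to its canonical TSS began at 75 bp without UV and at -121 bp after UV, counted from that TSS. *PMAIP1*, which encodes NOXA, had intervals of 371 and 389 bp either side of the TSS without UV, and 1 of 957 bp across it after UV. The ratio was 1.26, with percentiles of 97.9 and 97.1 for the strongest peak.

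*BAX*, the pore-forming protein of the mitochondrial outer membrane, had 732 and 1249 bp, a ratio of 1.71. Its peaks were weak. The start interval went from 330 to 500 bp, while its −log10 q was 4.99 without UV and 1.60 after UV, at percentiles 50.1 and 2.4 of the respective lists. With weak peaks removed, those under a −log10 q of 3, *BAX* kept a TSS interval without UV and had none after UV. *APAF1*, the core of the apoptosome, had 2262 and 1356 bp, a ratio of 0.599. Its start interval, shared with *IKBIP*, measured 1377 and 1356 bp, and the difference was an interval of 885 bp that lay 87930 bp downstream without UV.

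Of the remaining apoptosis genes, *PERP*, an effector at the cell membrane, had 310 and 744 bp, a ratio of 2.40, while its percentile was 71.4 without UV and 59.2 after UV. *PHLDA3*, a repressor of AKT, had 800 and 641 bp, a ratio of 0.801. Within 1 kb of its canonical TSS, however, it had 287 and 641 bp, a ratio of 2.23. An interval of 513 bp farther downstream was found only without UV. *TRIAP1*, an inhibitor of apoptosis, had 679 and 334 bp, a ratio of 0.492, in an interval that also lay near the TSS of *GATC*. *TP53INP1*, a cofactor that promotes p53 phosphorylation and autophagy, had no interval within 52516 bp without UV. After UV it had one of 1015 bp, from -141 to 873 bp, with a −log10 q of 9.55 at percentile 69.6. That interval also touched the start of *NDUFAF6*. *AEN*, a nuclease, had no TSS interval, and the nearest ones were 2644 and 2514 bp away.

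Among metabolic, redox and autophagy genes, 4 of 7 had H3.3 at a TSS in both lists. *SESN1* and *SESN2* encode sestrins, stress proteins that inhibit mTORC1. *SESN1* had 785 and 632 bp with percentiles of 89.3 and 96.0, so that a narrower interval had the higher rank, and *SESN2* had 589 and 921 bp. *TP53I3*, a quinone oxidoreductase, had 671 and 943 bp, with its percentile at 71.5 without UV and 94.1 after UV. *DRAM1*, a lysosomal protein of autophagy, had 1203 and 1118 bp. *TIGAR*, *FDXR* and *SPATA18*, which act in glycolysis, mitochondrial electron transfer and mitochondrial quality control, had no TSS interval.

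Both genes for nucleotide supply and lesion bypass had a TSS interval in both lists. *RRM2B*, the p53-inducible subunit of ribonucleotide reductase, had 383 bp without UV and 1066 bp afterwards. Its ratio of 2.78 was the highest of the 26. Its percentile was 75.6 without UV and 90.9 after UV. *POLH*, the polymerase that copies past UV lesions, had 710 and 762 bp in an interval shared with *XPO5*. *GDF15*, a secreted stress cytokine, had 1600 and 557 bp, and its ratio of 0.348 was the lowest. Its only TSS interval after UV ran from -11253 to -10697 bp, near an upstream TSS. *RPS27L*, a ribosomal protein paralog, had 1597 and 1333 bp. In all, 8 of the 34 genes shared a TSS interval with another coding gene.

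By role, the median ratio was 0.691 for feedback genes, 1.06 for cell cycle genes, 1.09 for apoptosis genes, 1.17 for metabolic genes, 1.93 for the pair of nucleotide and bypass genes and 0.591 for the pair of secreted and ribosomal genes. Each median rests on 2 to 10 genes. The feedback median is the ratio of *PPM1D*. Within 1 kb of the canonical TSS, *MDM2*, *PPM1D* and *ZMAT3* had ratios of 1.13, 1.0 and 1.12. The strongest TSS peak had a higher percentile after UV in 18 of 26 genes, beside 61.5% of protein-coding genes. The median percentile was 86.5 without UV and 90.0 after UV, against 85.1 and 89.4 over protein-coding genes.

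**Figure D3:**
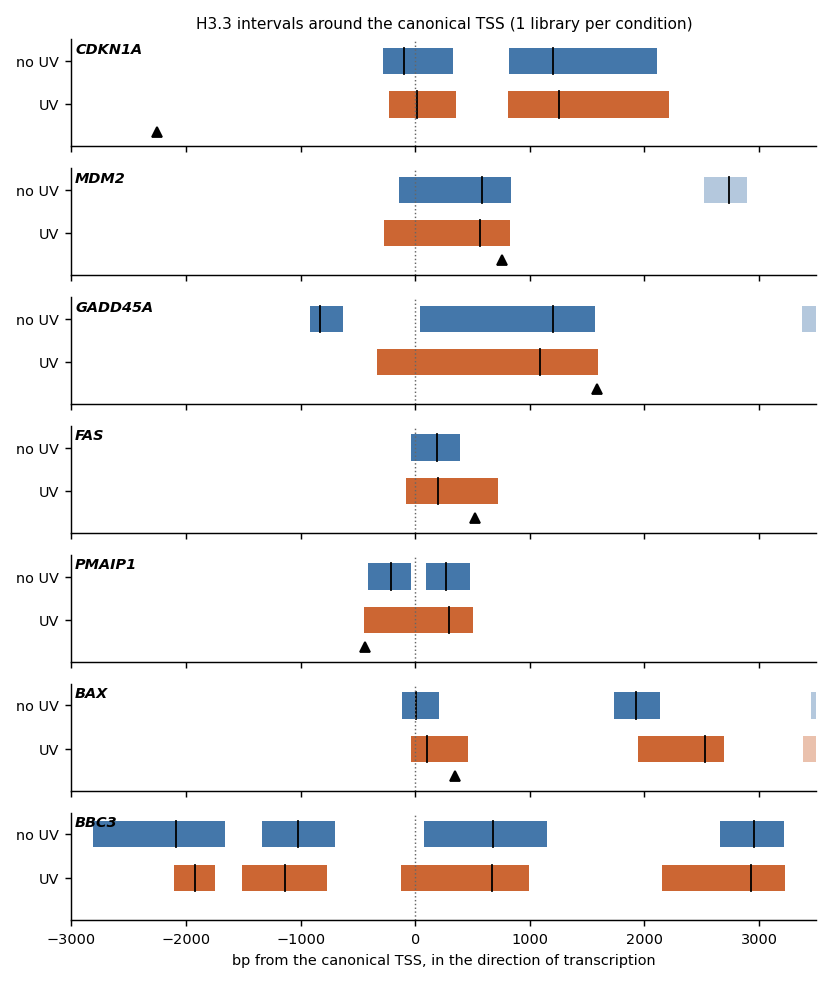
H3.3 intervals around the canonical TSS of 7 arrest and apoptosis genes, with bp from the TSS in the direction of transcription on the horizontal axis. Blue bars are the intervals without UV and orange bars those after UV, pale bars are not TSS intervals, a black tick is the strongest summit of an interval and a triangle is a p53 element match. At *GADD45A*, *PMAIP1* and *BBC3* the TSS, at 0, was covered only after UV, and the triangle of *CDKN1A* is at -2256 bp, outside every interval drawn.

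Coverage of the TSS base itself was higher after UV, in a view limited to the canonical TSS that was added after the data had been seen. The canonical TSS lay inside an interval in 14 of 34 genes without UV, beside 17.6% of protein-coding genes, and in 22 of 34 after UV, beside 28.2%. Of the 20 genes uncovered without UV, 9 were covered after UV, where 14.4% of such protein-coding genes were. These were *GADD45A*, *PLK2*, *BBC3*, *PMAIP1*, *PHLDA3*, *TP53INP1*, *TP53I3*, *RRM2B* and *RPS27L*. Of the 14 covered without UV, only *PPM1D* was uncovered after UV, where 7.25% of such genes were. All of the 9 except *TP53INP1* already had an interval within 1 kb of that TSS without UV. In that position were 12 of these genes, of which 8 became covered, beside 34.7% of the protein-coding genes in the same position.

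With this view, 25 genes had an interval within 1 kb of the canonical TSS in both lists, and their median ratio was 1.13, against 1.21 in protein-coding genes. The ratio was above 1 in 76.0% of them and in 76.5% of protein-coding genes. Wider calls were 9 of 25, beside 30.4%, and narrower calls 2 of 25, beside 6.25%, these being *TRIAP1* and *RPS27L*. At *RPS27L* an upstream interval ran from -1402 to -647 bp without UV. The interval that overlapped it after UV ran from -1410 to -1095 bp, outside the 1 kb window. The intervals of 411 and 430 bp either side of the *RPS27L* TSS were 1 interval of 1017 bp after UV. *MDM2*, *PLK2*, *TNFRSF10B* and *APAF1*, narrower over all their starts, had ratios of 1.13, 1.56, 1.21 and 0.985 here. The median shift of the strongest summit was 32 bp, against 31 bp in protein-coding genes, and it was at most 60 bp in 72.0% of the genes against 67.7%. The summit lay downstream of the TSS in 17 of 25 genes without UV, beside 64.2% of protein-coding genes, and in 18 after UV, beside 66.0%.

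**Figure D4:**
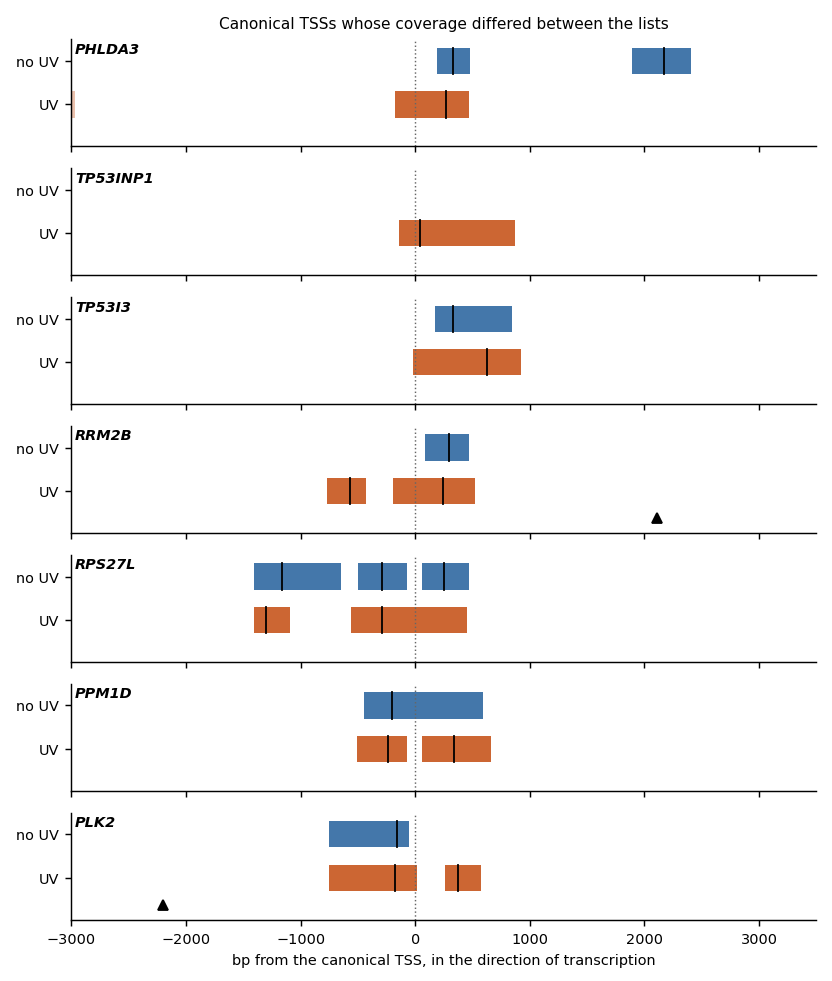
H3.3 intervals around 7 canonical TSSs whose coverage differed between the lists, drawn with bp from the TSS on the horizontal axis, blue without UV, orange after UV, black ticks for the strongest summit and triangles for p53 element matches. At *RPS27L* the intervals either side of the TSS without UV were 1 interval of 1017 bp after UV, and at *PPM1D* an interval of 1044 bp without UV was replaced by 2.

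Some intervals were joined and others split. An interval after UV overlapped 2 or more intervals without UV in 4 of 50 cases, at *PLK3*, *PIDD1*, *PMAIP1* and *RPS27L*, beside 5.53% of the TSS intervals of protein-coding genes. The reverse held in 2 of 57 cases, at *PPM1D* and *PIDD1*, beside 2.91%. Of the 57 intervals without UV, 12 met no UV interval, beside 23.5%, and 9 of the 50 UV intervals met none without UV, beside 32.3%. The median width of these genes' TSS intervals was 513 bp without UV and 726 bp after UV, against 473 and 525 bp in protein-coding genes. Fewer and longer intervals in these genes stood beside more intervals, 18126 and 19600, in protein-coding genes.

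The promoters of the joined intervals at *PMAIP1* and *RPS27L* are printed because the filled gap ran up to their starts. The letters are the 200 bases before the RefSeq start in GRCh38.p14, on the strand of the gene. Capitals mark the bases that were inside an interval only after UV, and the remaining bases were inside an interval in both lists.
*PMAIP1*, chr18:59899796-59899995, + strand: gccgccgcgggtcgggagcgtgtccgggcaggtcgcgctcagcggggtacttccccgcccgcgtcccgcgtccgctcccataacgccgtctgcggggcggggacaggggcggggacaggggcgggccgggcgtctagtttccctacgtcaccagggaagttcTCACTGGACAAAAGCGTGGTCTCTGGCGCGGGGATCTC
*RPS27L*, chr15:63157478-63157677, - strand: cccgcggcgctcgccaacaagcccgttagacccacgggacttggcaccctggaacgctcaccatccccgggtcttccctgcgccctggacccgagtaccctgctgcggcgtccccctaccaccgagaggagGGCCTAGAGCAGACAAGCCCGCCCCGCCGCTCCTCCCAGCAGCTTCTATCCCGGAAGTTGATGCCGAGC

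In *PMAIP1* the 38 bases next to the start were added and in *RPS27L* the 69 bases next to it. RefSeq promoters were matched by symbol for 28 of the 34 genes, and coverage of the 250 bases upstream was read for each, a view added after the data had been seen. The promoters of *GADD45A*, *PHLDA3*, *TNFRSF10A*, *TNFRSF10B*, *TP53INP1* and *RRM2B* were not analysed here. More of these bases were covered after UV in 10 of 28 genes, beside 22.5% of 15345 protein-coding promoters, and fewer in 5, beside 4.35%. The same number above 0 was covered in 4, beside 5.83%, and none in either list in 9, beside 67.3%. All of these shares include promoters with no covered base, which were a smaller part of these genes. No excess of gains or losses is therefore read from them. The largest gains were those of *FBXW7*, from 9 to 250 bases, and *PLK3*, from 78 to 250. The largest loss was that of *BAX*, from 117 to 37 bases. Summed over the 28 genes the covered bases were 3255 without UV and 3828 after UV, a ratio of 1.18, against 1.67 over the protein-coding promoters. Left out of this sum were *GADD45A*, *PHLDA3*, *TP53INP1* and *RRM2B*, whose canonical TSS was covered only after UV. Also left out were *TNFRSF10A* and *TNFRSF10B*, whose canonical TSS was covered in neither list. The ratio of 1.18 thus omits genes that gained coverage at the start, and nothing is read from its shortfall.

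The same 250 bases were searched on both strands for simple promoter motifs. GGGCGG, the GC box, was held by 24 of the 28 promoters and by 56.7% of 15345 protein-coding promoters. CCAAT was held by 12 of 28 and by 34.8%, and TATAAA only by *GDF15* and by 9.23%. Of the 5 matched genes with no TSS interval in either list, 4 held GGGCGG, as did 19 of the 22 with a TSS interval in both. None of the 3 motifs contains another, and a match is not evidence that a factor was bound.

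Away from the starts the genes held fewer intervals after UV in the lists as deposited, and nearly the same number when the lists were made equal in length. Intervals in the gene body or within 10 kb of it that were not TSS intervals numbered 192 without UV and 171 after UV, covering 115563 and 105357 bp, a ratio of 0.912. The same ratio over protein-coding genes was 0.867, and the whole list was shorter after UV too. With equal numbers of peaks kept in both lists, the strongest by significance, the intervals numbered 172 and 171, with a bp ratio of 0.987, and at a −log10 q of 5 or more they numbered 102 and 102. Of the 192 and 171 intervals in the full lists, 44 and 38 lay within 1 kb of the TSS of another gene. For protein-coding genes these were 10212 of 62544 without UV and 10883 of 53558 after UV. At least 1 body or flank interval was found in 25 of the 34 genes without UV and 24 after UV. Over the 20033 protein-coding genes, 13315 had one without UV and 12967 after UV. The one that lost it was *ZMAT3*, 1 of 25 beside 9.43%, and none of the 9 genes without one gained it, beside 13.5%. The number was lower after UV in 17 of 25 genes, beside 49.0% of protein-coding genes, and higher in 8 of 25, beside 31.0%.

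Summed over both lists, *POLH* had the most, with 26 body and flank intervals without UV and 28 after UV, followed by *PPM1D* with 16 and 15, *TNFRSF10B* with 15 and 11, and *PIDD1* with 11 and 13. In single lists *RPS27L*, with 15 without UV, and *GDF15*, with 13 after UV, reached similar numbers. At *PIDD1* 9 and 8 of these were at the TSS of another gene, as it sits in a dense stretch of genes. The largest falls were in *RPS27L*, from 15 to 7, and *TP53I3*, from 7 to 2, both singled out after their values were seen. The largest rise was in *GDF15*, from 9 to 13. *CDKN1A*, *FAS*, *PERP*, *SESN1*, *RRM2B*, *TP53INP1*, *BTG2*, *TNFRSF10A* and *SPATA18* had none in either list. For *CDKN1A* this means that all of its H3.3 intervals within 10 kb lay in the TSS class, and that its intervals reached no farther than 2210 bp past the start.

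**Figure D5:**
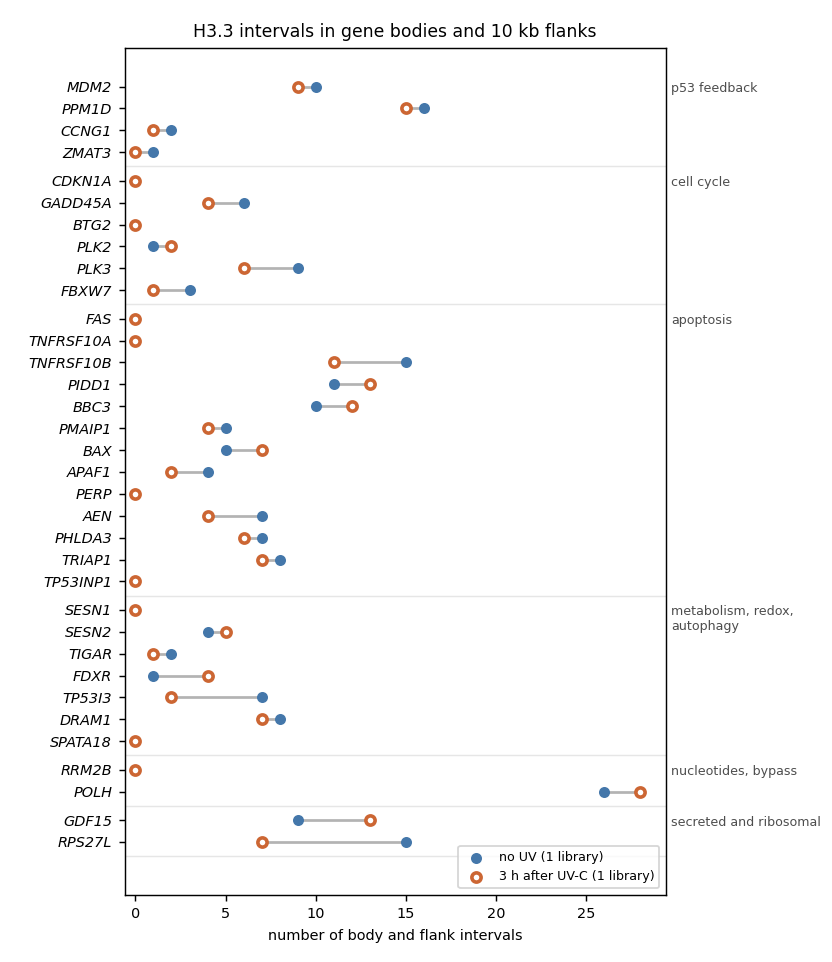
Number of H3.3 intervals in the body and 10 kb flanks of each p53 target gene, leaving out its TSS intervals. Filled points are the library without UV and open points the library after UV, 1 library each. *POLH* stands out with 26 and 28, and *RPS27L* has the widest difference, 15 and 7.

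The threshold of 1 kb separated the classes at close range. The TSS intervals farthest from a TSS were 1000 bp away, in *PIDD1* and *BBC3* without UV. The nearest interval left outside was that of *PPM1D*, at 1005 bp without UV and 1014 bp after UV.

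Other genes of the pathway were counted the same way. Of 24 regulators and cofactors of p53, 19 had a TSS interval in both lists, beside 8974 of 20033 protein-coding genes. Of these 19, 7 were wider and 2 narrower, beside 29.4% and 10.2% of protein-coding genes in both lists. Their median ratio was 1.14, against 1.18. The damage kinases split, with *ATM* having 467 bp without UV and none after UV, and *ATR* none without UV and 639 bp after UV. *DAXX*, an H3.3 chaperone that also binds p53, and the p53 relatives *TP63* and *TP73* had no TSS interval. Of 18 further p53 targets, 9 had a TSS interval in both lists and 9 in neither, beside 42.8% of protein-coding genes in neither. Their presence was thus near that of protein-coding genes. Of the 9 in both, 5 were wider and 4 narrower, beside the same 29.4% and 10.2%. Among them the stress factor *ATF3* had 340 and 1297 bp.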

How the data were processed

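H3.3 ChIP-seq intervals of MRC5 cells were analysed, 1 library without UV and 1 after UV-C. Per the submitters' notes and methods, paired-end reads were trimmed with Trimmomatic 3.36, aligned to hg38 with BWA 0.7.12 and freed of duplicates; MACS 1.4.2 is named, but the narrowPeak layout with q values is not that release's output. The control and threshold of the H3.3 calls are not given in the sources used here. The deposited files held, per peak, interval bounds, a score, a fold enrichment (ratio over background) and −log10 p and −log10 q values, as made by the authors' peak caller.

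Peaks sharing bounds were merged into distinct intervals and assigned to GENCODE 44 genes as TSS intervals (1 kb of any TSS) or as body and flank intervals (10 kb), with an overlap of at least 1 bp. Percentiles rank −log10 q within a list. Width ratios were called at 1.5-fold. Named genes were the best known members, those in 1 list only, the 4 highest and the 4 lowest ratios and the 4 with the most body intervals. The members and gene lists were chosen with earlier results of these data known. Python 3.11.15, pandas 2.3.3 and pysam 0.24.0 were used, and the assignment was tested on simulated intervals. Alternatives varied window, threshold, TSS set and motif stringency.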

Additional observations from a re-analysis of the deposited data

How the results depend on the processing

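Of 95 values recomputed under an alternative, 75 stayed close to the reported value and 20 moved. The count of narrower genes, 6, was 3 with a window of 2 kb, 3 with the 5' end of the gene only, 2 with protein-coding transcripts only and 2 with the canonical TSS only, the last chosen after seeing the data. Genes only after UV, 2, were 1 with the 5' end, with protein-coding transcripts and with the canonical TSS, where *CCNG1* dropped out. Genes only without UV, 0, were 1 with a 3 kb window (*TIGAR*), 1 at a −log10 q of at least 3 (*BAX*) and 1 with the canonical TSS (*GDF15*). Genes in neither list, 6, were 10 with the 5' end only, which added *CCNG1*, *CDKN1A*, *FAS* and *TP53I3*. The median ratio of 1.05 was 0.953 when only bp inside the windows were counted. Body and flank intervals, 192 and 171, were 102 and 84 in the gene body alone and 102 and 102 at a −log10 q of at least 5. The p53 matches inside intervals, 3 and 6, were 0 and 1 at up to 1 mismatch and 27 and 24 at up to 3 mismatches, so that the excess after UV reversed there. The causes were not tested. No replicate could be left out, and no paired analysis was possible because each condition had 1 library. Read depth is unknown and limits every value.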
